A study of Mus musculus with 128 samples.

Results

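The classical complement pathway genes C1qa, C1qb, C1qc, C1ra, C1s1, C2, C4b and Serping1 were followed in 8 mouse tissues at 4 ages. They are 8 of the 55285 gene symbols in each tissue's table. The set was taken by pathway membership, but it was also chosen on measured values, namely that C4b RNA was higher at later ages in most tissues and not in Aorta or Skin. The changes of C4b with age are therefore given as a description with no test, and the tests cover the other 7 genes.

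RNA came from wild-type, untreated male C57BL/6J mice aged 15, 24 and 30 months, which were compared with mice aged 6 months. The tissues were aorta, brain, heart, kidney, liver, lung, skin and muscle, the last being the gastrocnemius, a calf muscle. Each of the 32 tissue and age groups had 4 mRNA libraries made from whole frozen tissue ground to powder. The labels do not name the animals, so the spread between libraries may hold technical as well as animal-to-animal differences, and p-values measure that spread only.

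The classical pathway is the branch of complement that starts from bound antibody, dying cells or other surfaces. C1q, a recognition molecule built from the chains encoded by C1qa, C1qb and C1qc, carries the proteases C1r and C1s, and activated C1s cleaves C4 and C2 to form the enzyme that splits C3. The inhibitor encoded by Serping1 removes C1r and C1s from the complex. Macrophages and microglia are the main known makers of C1q, whereas hepatocytes make much of the C1r, C1s, C2, C4 and C1 inhibitor of plasma, and fibroblasts and other stromal cells make these locally.

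Most of the genes have a neighbour in the set. C1qa, C1qb and C1qc are on chromosome 4, C1ra and C1s1 on chromosome 6, C2 and C4b on chromosome 17 and Serping1 on chromosome 2. The 250 bases before a RefSeq start (GRCm38.p6) are shown for a pair of C1q chains and for the pair of proteases, because the promoter entries used held only these members. They are C1qb (chr4:136886201-136886450, minus strand), C1qc (chr4:136892915-136893164, minus strand), C1ra (chr6:124512371-124512620, plus strand) and C1s1 (chr6:124542360-124542609, minus strand), each written 5′ to 3′ along the gene with motif matches in capitals.
C1qb: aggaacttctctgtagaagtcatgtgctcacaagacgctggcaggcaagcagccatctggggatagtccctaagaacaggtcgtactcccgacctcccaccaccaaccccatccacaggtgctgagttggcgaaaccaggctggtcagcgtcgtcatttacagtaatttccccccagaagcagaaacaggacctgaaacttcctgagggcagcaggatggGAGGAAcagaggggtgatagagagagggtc
C1qc: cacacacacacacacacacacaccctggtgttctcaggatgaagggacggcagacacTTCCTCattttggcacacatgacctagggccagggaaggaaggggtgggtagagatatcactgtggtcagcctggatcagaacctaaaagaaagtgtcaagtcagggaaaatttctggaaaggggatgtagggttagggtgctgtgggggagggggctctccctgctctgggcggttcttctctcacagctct
C1ra: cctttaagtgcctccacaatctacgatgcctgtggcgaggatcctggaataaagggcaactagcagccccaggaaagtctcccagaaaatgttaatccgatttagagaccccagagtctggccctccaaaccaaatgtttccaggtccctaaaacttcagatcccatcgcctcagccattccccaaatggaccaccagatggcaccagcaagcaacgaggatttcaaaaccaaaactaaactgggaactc
C1s1: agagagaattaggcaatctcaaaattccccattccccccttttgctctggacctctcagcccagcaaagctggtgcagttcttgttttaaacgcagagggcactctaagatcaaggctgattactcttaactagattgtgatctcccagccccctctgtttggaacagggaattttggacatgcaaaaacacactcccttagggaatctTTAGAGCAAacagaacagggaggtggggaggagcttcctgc
The capitals in C1qb and C1qc mark the core GAGGAA of the myeloid factor PU.1, on the gene's strand in C1qb and on the opposite strand in C1qc. The match begins 30 bases before the start of C1qb and 193 bases before that of C1qc. The bases after this C1qb start were not found near the beginning of a GENCODE transcript of the gene, whereas those of C1qc, C1ra and C1s1 were. This core was found in 23.3% of the 32851 mouse promoters of that length. The capitals in C1s1 mark a match to TTGCNNNAA, a C/EBP motif found in 8.29% of promoters, which lies on the opposite strand and begins 41 bases before the start. RefSeq lists a second C1s1 start further along the gene, and the 250 bases before it, not shown, hold 2 such matches, 79 and 45 bases before that start. No match to either was found in C1ra. None of these 4 stretches held TTCNNNGAA, the gamma-activated site (7.02% of promoters), the core of the interferon-stimulated response element (2.98%) or an NF-kappaB motif (0.356%). All motifs were searched on both strands, and a match is a description of the letters only.

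Libraries held 7647585 to 82801330 reads, with a median of 15622747. All 5 identity markers of each tissue were highest in the tissue of that label. The library of Heart, 24 months, replicate 4 stood apart. It was the shallowest of all libraries, with a median Spearman correlation of 0.917 with the other Heart libraries against a median of 0.957 in that tissue. The libraries of Kidney, 30 months, replicates 3 and 4 and of Liver, 30 months, replicate 3 also lay somewhat away from the others. The member changes in Kidney and Liver at 30 months are given with and without the libraries of that age, and so are ratios and list counts where they moved, these last by a choice made after seeing the data. Muscle, 30 months, replicate 3 was not left out with these. Its chi-square per degree of freedom against its group was 58.3 to 65.2, and that of the other pairs there 8.04 to 15.5. Only the fits without each single library in turn give the Muscle values without it. Other libraries with high values were kept in the same way, such as Aorta, 15 months, replicate 2, at 69.8 to 116.5 against its group.

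At 6 months the 8 genes had unlike tissue profiles. Per length, in reads per kilobase of exons scaled to 1000000 reads per library (RPKM), Serping1 stood at 239 in Liver, C1s1 at 162, C4b at 142 and C1ra at 93.3, all above the 27.8 of C1qa there. In Brain the C1q chains led, with C1qa at 37.5, C1qb at 33.2 and C1qc at 18.7, against 5.25 for C4b, 2.63 for Serping1, 0.926 for C1ra and 0.486 for C1s1. C2 was lowest in Heart, at 0.148.

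**Figure D1:**
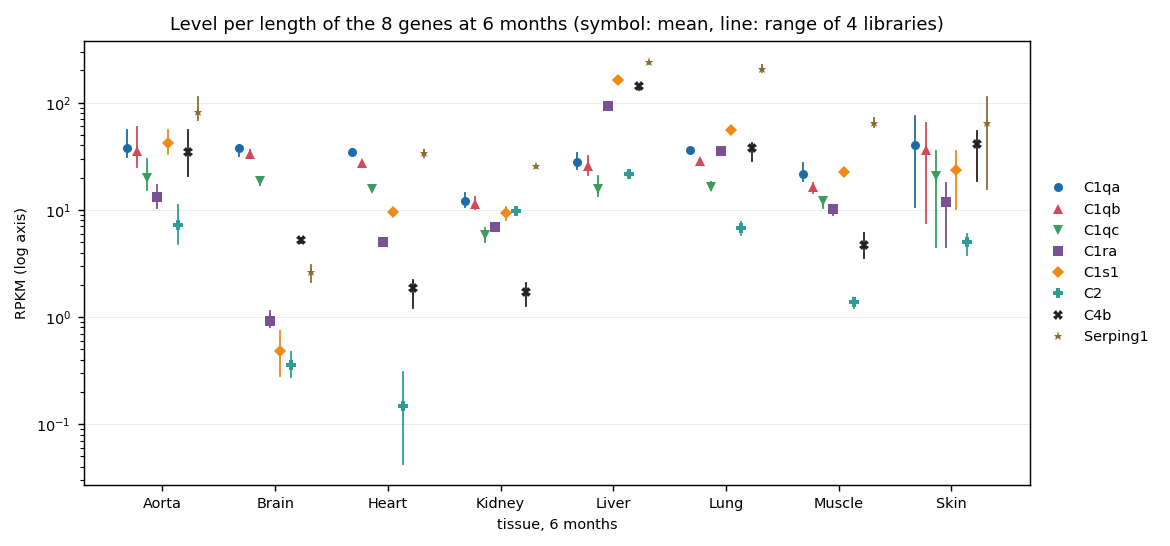
Mean level per length (symbols) and range of 4 libraries (lines) of the 8 genes at 6 months in each tissue, in RPKM on a log axis. C1qb runs from 11.3 in Kidney to 35.8 in Skin, whereas C1ra, C1s1, C4b and Serping1 are highest in Liver.

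In reads scaled to 1000000 per library (RPM), C1s1 averaged 506 ± 15.0 in Liver and 175 ± 7.70 in Lung (SD, n = 4 each), and no Liver library overlapped a Lung one. Lung overlapped Aorta, at 133 ± 29.9, and Aorta overlapped Skin, at 73.8 ± 34.6. Muscle, at 71.3 ± 1.72, lay within the Skin libraries, which ran from 31.8 to 110. Heart stood at 30.2 ± 1.48 and Kidney at 29.4 ± 3.32, these last overlapping, and Brain was lowest at 1.52 ± 0.589. The lowest Skin library lay below the highest Heart one, at 32.3. C4b had the same ends in part, with 810.1 ± 41.6 RPM in Liver and 9.75 ± 2.21 in Kidney. Skin, Lung and Aorta, at 235 ± 97.5, 217 ± 36.2 and 199 ± 87.3, could not be put in order beyond their spread, nor could Brain and Muscle, at 29.9 ± 1.33 and 27.0 ± 6.78, or Heart and Kidney. C1qb spanned less, with 39.0 ± 29.4 in Skin, 36.1 ± 2.64 in Brain and 12.3 ± 1.35 in Kidney, and the Kidney libraries lay below those of Muscle, the next tissue up.

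At 30 months RNA was called higher for all 7 tested genes in Kidney, and for all but C2 in Heart. In Brain it was called for the C1q chains, C1ra and Serping1, and in Liver, Lung and Muscle for the recognition chains. The calls of Brain C1ra and Heart C1qc were lost in 5 and 7 of 8 fits without 1 library. No tested gene was called in Aorta or Skin by limma at any of the 3 later ages. Of the 7 tested genes, 7 were called higher at 30 than at 6 months in Kidney (limma on log2 of the normalised reads plus 1, 16 libraries per tissue, Benjamini-Hochberg adjusted p under 0.05 over all genes tested), where 14.1% of all genes tested were, 6 in Heart (4.11% of genes), 5 in Brain (3.32%), 3 in Liver (13.8%), 3 in Lung (10.7%) and 3 in Muscle (6.15%). The 3 in the last tissues were the C1q chains. None was called in Aorta (3.08% of genes) or Skin (0.167%) by limma, by edgeR under both scalings or by DESeq2, and none had an unadjusted p under 0.05 there. limma-voom with quality weights also called none in Aorta, but called C1qa and C1qb lower in Skin. The median log2 fold change of the 7 genes was 1.14 in Kidney, 0.90 in Heart, 0.48 in Brain, 0.27 in Lung, 0.25 in Liver, 0.25 in Muscle, 0.20 in Aorta and 0.01 in Skin, and that of all genes lay between -0.02 and 0.01. Shares of all genes move with the spread of a tissue, so the counts of different tissues are not on 1 scale.

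C1q chain RNA was higher at 30 than at 6 months in Kidney, Liver, Lung, Heart, Muscle and Brain. The 3 chain genes passed the test in each of these tissues. The rise was largest in Kidney, Liver and Lung, at 1.31 to 2.06 on the log2 scale, and smallest in Brain, at 0.41 to 0.48. In Aorta and Skin no chain passed the test.

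In Kidney, C1qb stood at 782, 793, 615 and 1466 normalised reads (reads divided by the authors' scaling factor of the library) at 30 months, against 242, 188, 208 and 202 at 6 months. Every 30-month library lay above every 6-month one, and replicate 4 was far above its group. The change was 2.04 ± 0.20 (log2 fold change ± SE, adjusted p = 5.22e-06), and 1.91 ± 0.15 without replicates 3 and 4 (adjusted p = 1.36e-06). C1qa and C1qc changed by 2.06 ± 0.20 and 1.92 ± 0.19 in the same libraries, and by 1.96 ± 0.15 and 1.79 ± 0.13 without these replicates. A lack of overlap between groups, here and below, is a description only, since its share over all genes is not given.

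Liver C1qb reached 1681, 2788, 3706 and 1307 normalised reads at 30 months, against 485, 564, 581 and 769 at 6 months. The groups did not overlap, the 30-month livers spread widely, and replicate 3, one of the libraries away from the rest, was the highest. The change was 1.88 ± 0.28 (adjusted p = 0.00049) and 1.63 without that replicate, with C1qa at 1.70 ± 0.27 and C1qc at 1.94 ± 0.31. Without it C1qa stood at 1.497 ± 0.26 and C1qc at 1.65 ± 0.28, and all 3 chains still passed (adjusted p up to 0.00143). Lung C1qb stood at 1413, 1586, 1033 and 1658 at 30 months, against 489, 503, 522 and 546 at 6 months, a change of 1.44 ± 0.16 (adjusted p = 0.000103).

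Muscle C1qb was 513, 596, 484 and 789 at 30 months, against 348.9, 329.8, 284.5 and 331 at 6 months, again without overlap (0.86 ± 0.13, adjusted p = 0.000726). In Brain, where microglia are the known source of C1q, the gene stood at 931, 947, 784 and 833 at 30 months, against 606, 574, 688 and 646 at 6 months. The Brain change was small and even between libraries, at 0.47 ± 0.07 (adjusted p = 0.000444).

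Heart C1qb was 1321, 1106, 1200 and 725 at 30 months, against 528, 506, 526 and 496 at 6 months, a change of 1.05 ± 0.20 (adjusted p = 0.00537). Heart C1qc rose by 1.02 ± 0.28 with an adjusted p of 0.041, a call lost on leaving out any of the 4 libraries at 6 months or replicates 1, 2 or 3 at 30 months (adjusted p up to 0.129). The library that stood apart, Heart, 24 months, replicate 4, held 334 normalised reads of C1qc, against 835 to 1140 in the other 24-month hearts. Without it the 30-month change had an adjusted p of 1.13e-05.

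In Aorta, C1qb stood at 702, 1163, 913 and 685 at 30 months, against 552, 476, 1054 and 536 at 6 months, and the groups overlapped through replicate 3 at 6 months. The change of 0.45 ± 0.32 did not pass (adjusted p = 0.437). In Skin the 30-month libraries ran from 248 to 679 and lay within the 6-month ones, which ran from 112 to 1035. The fitted Skin changes were -0.22 ± 0.46 for C1qa, -0.17 ± 0.53 for C1qb and 0.01 ± 0.49 for C1qc.

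**Figure D2:**
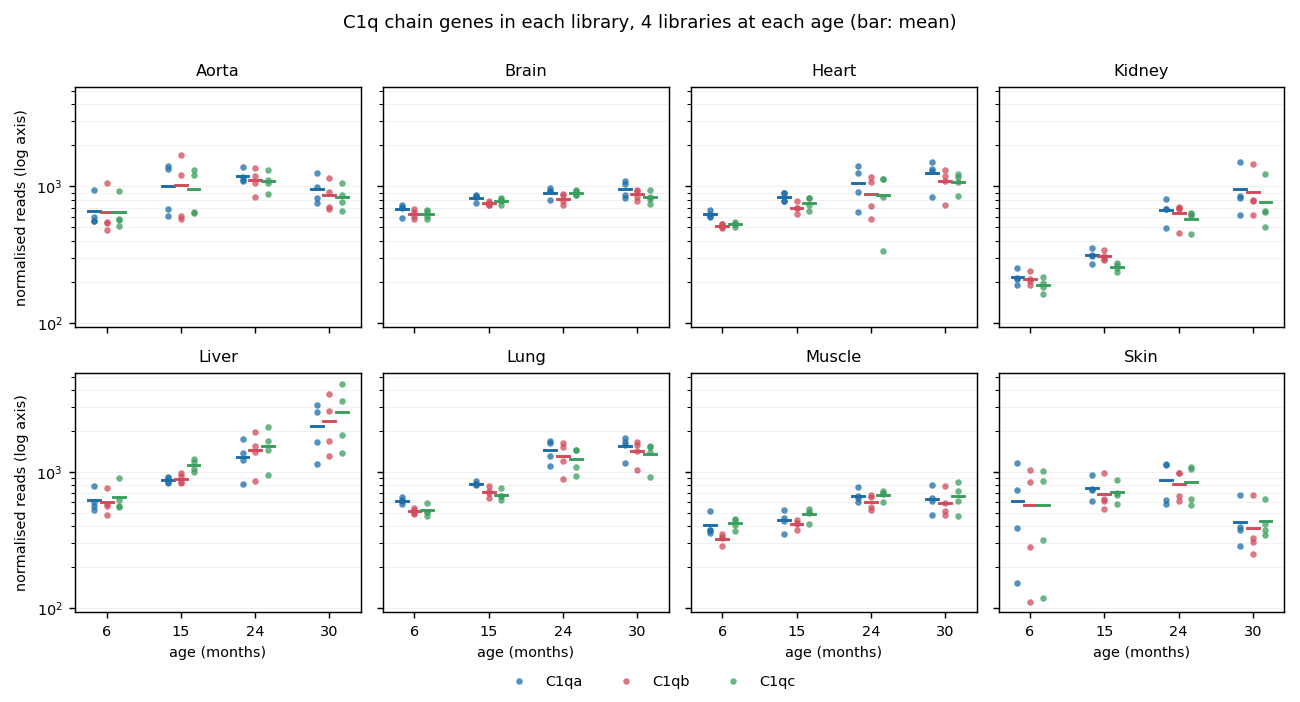
Normalised reads (log axis) of C1qa, C1qb and C1qc in every library by age in months, with 1 panel per tissue and the mean of 4 libraries as a bar. The chains run together in each tissue, the Kidney libraries at 30 months (C1qb 615 to 1466) all lie above those at 6 months (188 to 242), and the Skin libraries at 6 months spread from 112 to 1035 for C1qb.

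The C1q chains were already called at 24 months in Brain, Kidney, Liver, Lung and Muscle, and C1qb in Heart. Liver C1qb stood then at 1.23 ± 0.28, Lung C1qb at 1.31 ± 0.16 and Kidney C1qb at 1.58 ± 0.20 (log2 fold change against 6 months ± SE). At 15 months no chain passed the test in any tissue with all libraries in the fit, although the fitted changes of C1qb were above 0 in all 8, from 0.26 in Brain to 0.72 in Skin. The comparisons at 15, 24 and 30 months share the 6-month libraries, so they are not separate evidence.

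The ratios of the chain genes to one another shifted by small amounts. The log2 ratio of C1qa to C1qb at 30 months minus that at 6 months lay between -0.22 and 0.08 over the 8 tissues, and that of C1qc to C1qb between -0.22 and 0.18. Some shifts went beyond the spread of the libraries. In Muscle, C1qc to C1qb was 0.31 to 0.43 at 6 months and -0.02 to 0.27 at 30 months. In Heart, C1qa to C1qb was 0.25 to 0.36 at 6 months and 0.17 to 0.23 at 30 months. After each tissue was centred on its own mean, Pearson's r over the libraries of all 32 groups was 0.98 for C1qa and C1qb, 0.97 for C1qa and C1qc and 0.97 for C1qb and C1qc. These points share tissue, library and age, so r is a description.

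The proteases C1ra and C1s1 were called higher at 30 months in Heart and Kidney, and C1ra also in Brain. In Kidney, C1ra stood at 751, 659, 580 and 835 normalised reads at 30 months, against 369, 334, 353 and 354 at 6 months, without overlap (0.99 ± 0.11, adjusted p = 1.86e-05). Kidney C1s1 stood at 815, 910, 663 and 1037, against 517, 484, 444 and 557 (0.76 ± 0.11, adjusted p = 0.000227). Without replicates 3 and 4 at 30 months the Kidney changes were 0.996 ± 0.11 for C1ra and 0.79 ± 0.10 for C1s1, and both passed (adjusted p = 3.73e-05 and 0.000131).

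Heart C1s1 was 958, 917, 936 and 800 at 30 months, against 511, 545, 527 and 506 at 6 months, with tight groups far apart (0.79 ± 0.09, adjusted p = 6.09e-05). It was also called at 15 months, at 669, 707, 709 and 744 (0.44 ± 0.09, adjusted p = 0.0272), a call that was lost in 7 of the 8 fits that left out 1 library of the ages compared, all but that without replicate 1 at 15 months (adjusted p up to 0.111). Without the Heart library that stood apart, its adjusted p at 15 months was 0.000594. Heart C1ra rose to 500, 471, 538 and 424 at 30 months, against 280, 257, 262 and 234 at 6 months (0.90 ± 0.11, adjusted p = 0.000252).

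Brain held few reads of either protease. C1ra had 65.2, 83.2, 75.1 and 72.4 normalised reads at 30 months, against 41.7, 42.7, 48.9 and 59.2 at 6 months, a change of 0.62 ± 0.16 (adjusted p = 0.024). That call was lost without replicate 1 or 2 at 6 months or without replicate 2, 3 or 4 at 30 months (adjusted p up to 0.0701). Brain C1s1, with 38.4 to 45.5 normalised reads at 30 months against 15.4 to 40.0 at 6 months, changed by 0.74 ± 0.24 and missed the threshold (adjusted p = 0.0624), and passed without replicate 2 at 6 months (adjusted p = 0.0184).

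In Liver, the tissue with the most protease RNA, C1s1 stood at 11587, 11354, 7109 and 11644 normalised reads at 30 months, against 10879, 10698, 10302 and 11439 at 6 months. The groups overlapped and the fitted change was -0.08 ± 0.13 (adjusted p = 0.685), with the low 30-month library again replicate 3, without which the value was 0.09 ± 0.07 (adjusted p = 0.395). C1ra changed by 0.09 ± 0.09 in Liver, or 0.16 ± 0.08 without replicate 3, 0.16 ± 0.15 in Lung and 0.05 ± 0.13 in Muscle, and C1s1 by -0.07 ± 0.11 in Lung and -0.09 ± 0.14 in Muscle, none of which passed. Leaving out 1 library moved the Muscle values between -0.05 and 0.23 for C1ra (lowest limma adjusted p 0.0693). For C1s1 they moved between -0.18 and 0.11 (lowest limma adjusted p 0.438). In Aorta the values were -0.02 ± 0.13 for C1ra and -0.17 ± 0.12 for C1s1, and in Skin 0.46 ± 0.33 and 0.33 ± 0.29.

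The log2 ratio of C1s1 to C1ra shifted between 6 and 30 months by -0.23 to 0.13 over the tissues, and was above 0 in Brain alone. In Lung it stood at 0.69 to 0.75 at 6 months and 0.45 to 0.55 at 30 months, without overlap. The log2 ratio of C1s1 to C1qb shifted by -1.97 in Liver, -1.51 in Lung, -1.28 in Kidney, -0.94 in Muscle, -0.62 in Aorta and -0.26 in Heart, but by 0.27 in Brain and 0.51 in Skin. Without the 30-month libraries away from the rest, the shift of C1s1 to C1qb was -1.54 in Liver, close to the Lung value, and -1.12 in Kidney, and that of C1s1 to C1ra was -0.07 in Liver and -0.21 in Kidney.

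C2, the protease component of the C3-splitting enzyme, was called at 30 months by limma in Kidney alone. It stood there at 865, 920, 996 and 958 normalised reads, against 652, 611, 675 and 662 at 6 months, with narrow groups that did not overlap (0.52 ± 0.06, adjusted p = 1.76e-05), or 0.46 ± 0.07 without replicates 3 and 4 (adjusted p = 0.000316). In Liver it was 2178, 2415, 1657 and 2348 at 30 months, against 1765, 1765, 1752 and 1850 at 6 months, and the change of 0.25 ± 0.11 missed the threshold (adjusted p = 0.0913). Without replicate 3 at 30 months the Liver change was 0.37 and passed (adjusted p = 0.00451). Muscle C2 changed by 0.25 ± 0.16 and among the fits without 1 library passed only without replicate 3 at 30 months (adjusted p = 0.0468). limma-voom called C2 in Liver and in Muscle as well.

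At 24 months C2 passed in Heart, Kidney, Liver and Lung. Lung C2 stood at 682, 821, 545 and 591 normalised reads at 24 months, against 364, 421, 458 and 503 at 6 months (0.59 ± 0.13, adjusted p = 0.00634), and at 580, 449, 507 and 560 at 30 months, where it overlapped the 6-month libraries (0.27 ± 0.13, adjusted p = 0.155). Heart C2 rests on few reads, between 3 and 24 per library at 6 months. Its 24-month change of 1.45 ± 0.39 (adjusted p = 0.045) was lost in 6 of the 8 fits that left out 1 library and in edgeR.

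C4b, one of the mouse C4 genes and the source of the C4 that C1s cleaves, was the gene whose pattern chose the set, so what follows is description. In Brain it stood at 490 to 549 normalised reads at 6 months, 935 to 1088 at 15 months, 2104 to 2366 at 24 months and 3279 to 4029 at 30 months. No age overlapped the next, and the mean was 3554 ± 346 at 30 months and 521 ± 23.9 at 6 months (SD, n = 4 each). The log2 fold change at 30 months was 2.77 ± 0.07 (SE), beside 0.47 ± 0.07 for C1qb in the same libraries.

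Heart C4b stood at 1471, 1189, 1677 and 1024 at 30 months, against 122, 196, 196 and 215 at 6 months (2.88 ± 0.23). It was already at 544 to 599 at 15 months, all above the 6-month hearts. Kidney C4b stood at 759, 903, 742 and 1227 at 30 months, against 200.5, 123, 149.8 and 190.3 at 6 months (2.44 ± 0.26), or 2.34 ± 0.31 without replicates 3 and 4. The Kidney libraries at 24 months ran from 463 to 1357.

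Liver C4b, the highest of any tissue, stood at 25494, 29689.8, 21675 and 20779 at 30 months, against 17624, 17706, 17188 and 16787 at 6 months (0.48 ± 0.15), or 0.53 ± 0.16 without replicate 3. Lung C4b was 6372, 5891, 5832 and 7118, against 2621, 3786, 3919 and 4014 (0.83 ± 0.14), and Muscle C4b 796, 1079, 779 and 1158, against 370, 406, 558 and 611 (0.98 ± 0.21). In each of these tissues every 30-month library lay above every 6-month one. In Lung the mean at 24 months, 6896 ± 1194, was not below that at 30 months, 6304 ± 594.

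Aorta and Skin did not share the rise. Aorta C4b stood at 1773, 3613, 2703 and 2459 at 30 months, against 2503, 3647, 5156 and 2112 at 6 months (-0.31 ± 0.28). Skin C4b stood at 3678, 2639, 2435 and 2443, against 2946, 1441, 4622 and 4524 (-0.16 ± 0.29). The groups overlapped in both tissues, and leaving out 1 library moved the Skin value between -0.52 and 0.04.

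**Figure D3:**
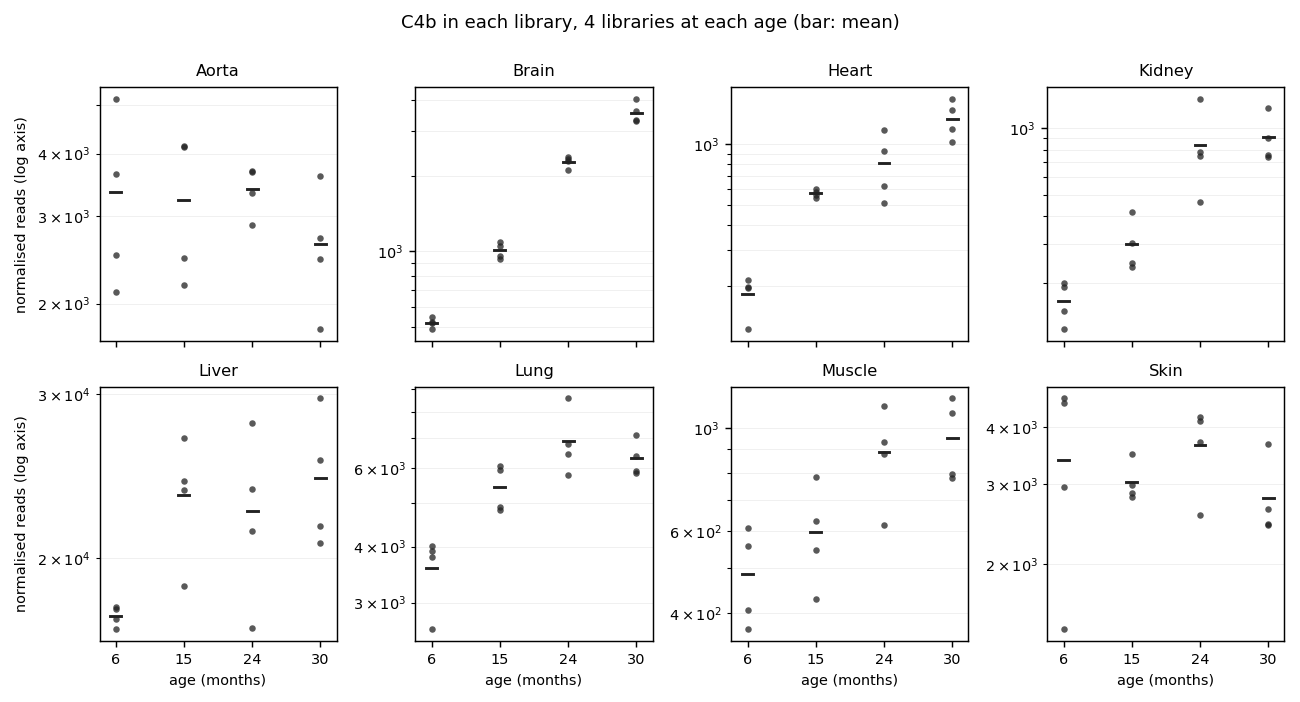
Normalised reads (log axis, its range set for each panel) of C4b in every library by age in months, with the mean of 4 libraries as a bar. In Brain no age overlaps the next, with 3279 to 4029 at 30 months against 490 to 549 at 6 months, whereas the ages overlap throughout in Aorta and Skin.

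C4b and the C1q chains did not keep a common ratio. The log2 ratio of C4b to C1qb at 30 months minus that at 6 months was 2.29 in Brain and 1.83 in Heart, 0.40 in Kidney, 0.12 in Muscle and 0.02 in Skin, and -0.61 in Lung, -0.75 in Aorta and -1.40 in Liver. Without the 30-month libraries away from the rest it was 0.43 in Kidney and -1.10 in Liver, and Brain and Liver lay at opposite ends either way.

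Serping1, which encodes the C1 inhibitor, was called higher at 30 months in Brain, Heart and Kidney. In Kidney it stood at 2192, 2199, 2012 and 2654 normalised reads at 30 months, against 1040, 977, 1070 and 998 at 6 months (1.14 ± 0.08, adjusted p = 4e-07), or 1.10 ± 0.08 without replicates 3 and 4 (adjusted p = 1.2e-06). In Heart it stood at 2243, 2040, 2378 and 1854, against 1271, 1293, 1438 and 1437 (0.64 ± 0.14, adjusted p = 0.0106), and in Brain at 153, 200, 174 and 139, against 123, 92.1, 123 and 87.1 (0.65 ± 0.15, adjusted p = 0.0119). No group overlapped its 6-month counterpart in these tissues, and the share of all genes without overlap there is not given.

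Elsewhere Serping1 did not pass. The fitted changes at 30 months were 0.23 ± 0.17 in Liver (0.37 ± 0.15 without replicate 3, adjusted p = 0.0894), 0.20 ± 0.14 in Aorta, 0.03 ± 0.10 in Muscle, 0.01 ± 0.45 in Skin and -0.13 ± 0.10 in Lung. Leaving out 1 library moved the Muscle value between -0.04 and 0.16 (lowest limma adjusted p 0.129). The log2 ratio of Serping1 to its target C1s1 shifted by 0.38 in Kidney, 0.37 in Aorta, 0.31 in Liver, 0.11 in Muscle, -0.05 in Lung, -0.10 in Brain, -0.14 in Heart and -0.32 in Skin, and by 0.32 in Kidney and 0.28 in Liver without the 30-month libraries away from the rest.

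**Figure D4:**
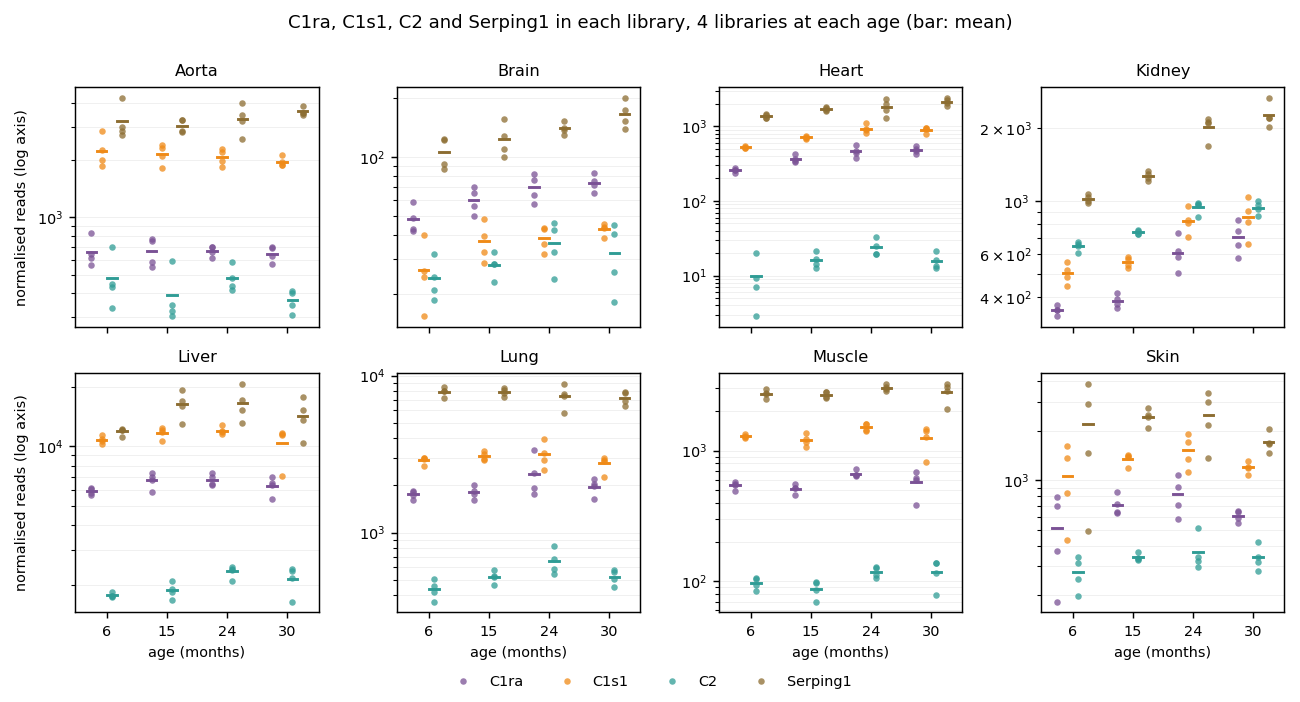
Normalised reads (log axis, its range set for each panel) of C1ra, C1s1, C2 and Serping1 in every library by age in months, with the mean of 4 libraries as a bar. In Kidney all 4 genes are higher at 30 than at 6 months without overlap (Serping1 2012 to 2654 against 977 to 1070), whereas in Lung and Muscle C1s1 and Serping1 overlap between these ages. The share of all Kidney genes without overlap is not given.

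At 24 months 7 of the 7 tested genes were called higher in Kidney (6.72% of all genes), 4 in Heart (3.75%), 4 in Liver (7.6%), 4 in Lung (8.91%), 3 in Brain (0.581%) and 3 in Muscle (1.16%), and none in Aorta (2.8%) or Skin (0.887%). In Aorta 3 had an unadjusted p under 0.05, edgeR called 0, DESeq2 2, limma-voom 3, and the fit of 2 ages alone and that with the replicate block 1 each, and C1qa and C1qc passed in limma without replicate 3 at 6 months (lowest adjusted p 0.0274 and 0.0291). With the replicate block 923 of all Aorta genes were called at 24 months, against 871 in the main fit. In Skin 3 had an unadjusted p under 0.05 and edgeR, DESeq2 and limma-voom called 0. The shares of all genes at an unadjusted p under 0.05, or called by these tools, are not given, so such counts have no background here. The calls of C1qa in Brain, Liver and Muscle, of C1qb and C2 in Heart and of C2 in Liver were each lost in 6 of 8 fits without 1 library, that of C1qc in Liver in 5, that of C1qb in Brain in 3 and that of C1qc in Muscle in 2. Leaving out Heart, 24 months, replicate 4 added C1qa, C1qc and Serping1 to the Heart calls, with adjusted p of 0.00228, 0.00016 and 0.00221. Serping1 passed in Liver without replicate 3 at 24 months (adjusted p = 0.0437), and C1ra in Lung without replicate 4 at 24 months (adjusted p = 0.0384).

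At 15 months the C1s1 call in Heart (0.503% of genes) was the only one by limma. None was made in Aorta (0.0534%), Brain (0.0247%), Kidney (0.378%), Liver (0.693%), Lung (1.24%), Muscle (0.405%) or Skin (0.161%). Unadjusted p was under 0.05 for 4 genes in Brain, 5 in Kidney, 2 in Liver, 3 in Lung, 1 in Muscle and 0 in Aorta and Skin, and edgeR called 0 in all of them. The shares of all genes above are for adjusted limma calls with all libraries. They are no background for counts at an unadjusted p, by another tool or with fewer libraries, here and below. DESeq2 called 1 in Brain and 1 in Kidney, and limma-voom 1 in Kidney and 2 in Liver. Without both Kidney 30-month libraries that stood apart, C1qa, C1qb, C1qc and Serping1 passed in Kidney at 15 months (adjusted p 0.0416, 0.0275, 0.0474 and 0.0275). In Heart at 15 months 5 genes had an unadjusted p under 0.05, edgeR called 1, DESeq2 2 and limma-voom 4. Without the Heart 24-month library that stood apart, C1qc, C1ra and Serping1 passed there beside C1s1 (limma adjusted p 0.0137, 0.005 and 0.0421). No gene of the 7 was called lower at any age in any tissue by limma, edgeR or DESeq2, with 0 of 56 gene and tissue pairs below 0 at an unadjusted p under 0.05 at each age, and the lower calls of limma-voom were the 2 in Skin at 30 months.

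**Figure D5:**
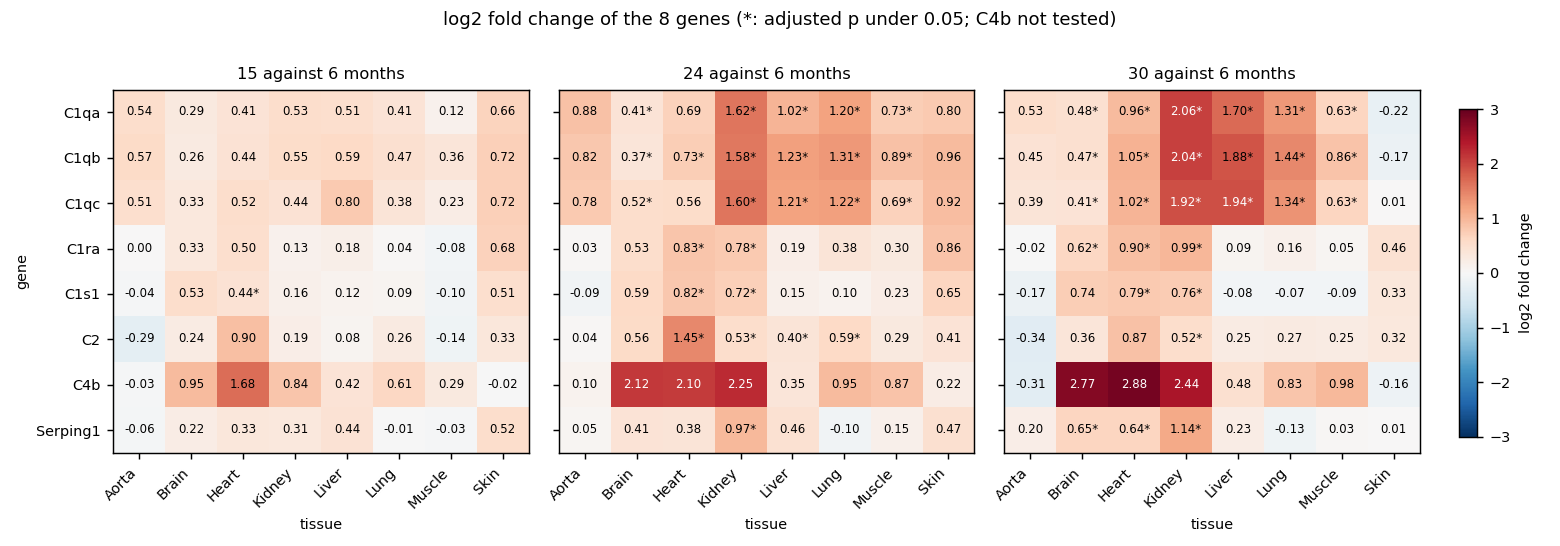
Log2 fold change against 6 months of the 8 genes (rows) in the 8 tissues (columns) at 15, 24 and 30 months, with red for higher and blue for lower at the later age and an asterisk for an adjusted p under 0.05. C4b carries no asterisk because it was not tested, and it has the strongest values, 2.77, 2.88 and 2.44 in Brain, Heart and Kidney at 30 months.

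The change between 6 and 30 months differed between tissues for 6 of the 7 genes (F test of the interaction of tissue and age in limma, all libraries of the 32 groups), where 32.2% of all 21469 genes tested passed. The adjusted p was 8.88e-06 for C1qa, 4.85e-05 for C1qb, 7.42e-05 for C1qc, 0.000114 for C1s1, 0.000679 for C1ra and 0.00573 for Serping1. C2 did not pass (adjusted p = 0.09), except without replicate 2 of Heart at 6 months (adjusted p = 0.00175) or without replicate 4 of Aorta at 6 months. The C1q changes ran from -0.22 for C1qa in Skin to 2.06 for C1qa in Kidney, and those of C1ra from -0.02 in Aorta to 0.99 in Kidney.

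Genes whose tissue-centred levels ran most like each member over all libraries of the 32 groups were sought among 10896 genes measured in all tissues. For the C1q chains they were Laptm5, C3ar1 (the C3a receptor), Unc93b1, Fcgr3, Tyrobp and other genes known from macrophages, with r of 0.87 to 0.91. C4b ran most like C3, the next component (r = 0.85), Serpina3n (0.80), and the class I genes H2-D1 (0.78), B2m (0.77) and H2-K1 (0.77). C1ra and C1s1 ran most like C3 (0.76 and 0.75) and Mrc1 (0.75 and 0.69), and Serping1 like Mrc1 (0.76) and Dcn (0.75), the gene of the matrix proteoglycan decorin. C2 had no close companion, B2m being nearest at 0.56. Among the members themselves r was 0.85 for C1ra and C1s1, 0.83 for C1ra and Serping1, 0.66 for C1qb and C4b and 0.47 for C1qb and C2, all over libraries that share tissue, age and library.

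Components further along complement moved in the same tissues in part. For the lists that follow, the share of all genes called higher at 30 months is given above, and the share called lower was 14.2% in Kidney, 11% in Liver, 8.64% in Lung, 6.92% in Muscle, 4.18% in Brain, 2.59% in Aorta, 1.04% in Heart and 0.553% in Skin. Without the 30-month libraries away from the rest, 9.17% of genes in Kidney were called higher and 7.6% lower, and in Liver 11.6% higher and 8.26% lower. C3 rose at 30 months in Kidney (2.91 ± 0.23, adjusted p = 9.82e-07), Brain (2.42 ± 0.26, adjusted p = 1.49e-05), Heart (1.29 ± 0.13, adjusted p = 2.56e-05) and Liver (0.77 ± 0.17, adjusted p = 0.00436), and missed the threshold in Lung (0.51 ± 0.18, adjusted p = 0.0513). In the list of C3 and the alternative pathway, 5 of 6 tested genes were called higher in Kidney, 3 of 6 in Liver with 1 lower, 2 of 6 in Lung, 2 of 5 in Heart, 2 of 3 in Brain, 1 of 5 in Muscle and 0 of 5 in Aorta and Skin. Cfb, the counterpart of C2 in the alternative pathway, rose by 3.40 ± 0.32 in Heart and 1.33 ± 0.32 in Lung (limma adjusted p = 9.64e-06 and 0.00955).

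The lectin pathway, which shares C2 and C4 with the classical one, had 2 of 6 genes higher in Kidney, 2 of 7 in Liver with 2 lower, 1 of 3 in Heart, 1 of 5 in Lung and 0 in Aorta, Brain, Muscle and Skin. Of the terminal components, 2 of 5 were higher and 1 lower in Kidney, 2 of 3 higher in Heart, 1 of 3 higher in Muscle, and 4 of 7 lower and 1 higher in Liver and 2 of 3 lower in Lung, and none in Aorta, Brain and Skin. C7 rose by 1.82 ± 0.15 in Kidney, and C9 fell by 0.96 ± 0.25 in Liver (limma adjusted p = 9.82e-07 and 0.0101). Without the 30-month libraries away from the rest the C9 change in Liver was -0.62 ± 0.14 (limma adjusted p = 0.00638), and 2 terminal genes were higher in Liver in place of 1. Among 12 to 14 regulators and receptors tested per tissue, 5 were higher and 1 lower in Liver and in Lung, 4 higher and 2 lower in Kidney, 4 higher in Heart, 2 higher in Brain, 2 higher and 2 lower in Muscle and 0 in Aorta and Skin. Vsig4, a macrophage receptor for C3 fragments, rose by 4.71 ± 0.93 in Lung and 2.58 ± 0.24 in Heart, and C3ar1 by 2.36 ± 0.28 in Kidney and 1.42 ± 0.21 in Heart.

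Macrophage markers moved with the C1q chains. Of the 15 in the list, which does not hold the C1q genes, 14 were called higher at 30 months in Kidney, 14 in Liver, 13 in Heart, 11 in Lung, 11 in Muscle, 7 in Brain and 0 in Aorta and Skin, with median changes of 1.77, 1.91, 1.14, 1.01, 0.70, 0.55, 0.38 and 0.06. Without the 30-month libraries away from the rest, 14 were called in Kidney and 12 in Liver, with medians of 1.71 and 1.66. Their summed level was 4825 to 12561 normalised reads in Kidney at 30 months, against 2173 to 2497 at 6 months, and 11567 to 33974 in Liver, against 5756 to 8185. In Skin it was 5387 to 7009 at 30 months, against 2874 to 11268 at 6 months, so the spread of the young Skin libraries was shared by the C1q chains. The part of these cells in the result was not tested, and in bulk RNA more cells of a type and more RNA per cell cannot be told apart.

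Other marker lists moved less evenly. In Brain the microglial list had 2 of 10 genes higher and a median change of 0.12, with a summed level of 5666 to 7464 normalised reads at 30 months, against 5859 to 6121 at 6 months, and the astrocyte list had 2 of 9 higher, with 81796 to 87322 against 76573 to 79725. The fibroblast list had 6 of 12 genes higher in Kidney, 6 of 9 in Liver and 1 of 12 in Heart, but 7 of 12 lower and 1 higher in Lung, 8 of 12 lower in Muscle, 2 of 10 lower in Brain and 1 of 12 lower in Aorta and in Skin. Without the 30-month libraries away from the rest, 10 of 12 were higher in Kidney and 7 of 9 in Liver, while the counts of the hepatocyte, B and plasma cell, endothelial, lectin and regulator lists there moved by at most 1 gene in each direction. In Skin the fibroblast sum was 38963 to 59007 at 30 months, against 50308 to 265308 at 6 months. The hepatocyte list had 1 of 10 genes lower in Liver, 1 of 9 lower in Skin, 4 of 9 higher and 1 lower in Kidney, 2 of 5 higher in Lung, 2 of 3 higher in Heart and 1 of 9 higher in Brain. B and plasma cell markers were higher for 8 of 8 genes in Liver, 4 of 8 in Kidney and in Lung, 1 of 8 in Aorta, 1 of 3 in Brain, 1 of 5 in Muscle and 0 in Heart and Skin, and of 7 endothelial markers 1 was higher and 4 lower in Lung, 2 lower in Muscle, 1 lower in Aorta, 2 higher in Liver, 1 higher in Brain, Heart and Kidney each, and none was called in Skin.

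Interferon response genes were higher at 30 months for 16 of 16 in Kidney, 14 of 16 in Lung, 12 of 16 in Liver and in Muscle, 11 of 15 in Brain, 7 of 16 in Heart and 0 of 16 in Aorta and Skin. The roles of these genes and of the marker cells in the complement values were not tested.

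Close copies limit 3 of the members. Of the stretches of 50 bases along the C4b transcript, 35.2% also occur in C4a, as do 48.0% of C1ra in C1rb and 24.3% of C1s1 in C1s2, so the authors' counting could have split reads between them. Over all ages C4a took between 0.371% of the reads of its pair in Aorta and 8.37% in Kidney, but in Kidney its share was 2.88% at 30 months, against 22.4% at 6 months. C1rb took at most 0.189%, and C1s2 took between 0.0067% in Liver and 10.7% in Brain. In Kidney, C4a had 14.5 to 34.7 normalised reads at 30 months, against 36.4 to 68.8 at 6 months (-0.85 ± 0.39, limma adjusted p = 0.111), opposite in sign to C4b. It averaged 26.8 beside 908 for C4b at 30 months, against 48.1 beside 166 at 6 months, so the younger group, against which the C4b change is taken, was the more open to reads split between the copies. In Brain, C4a had 21.2 to 27.7, against 24.5 to 34.8. C1rl, a relative of C1ra, rose by 0.87 ± 0.19 in Heart (limma adjusted p = 0.0144) and fell by 0.45 ± 0.14 in Kidney (limma adjusted p = 0.0261), a call lost without replicates 3 and 4 at 30 months (-0.15 ± 0.11, limma adjusted p = 0.37).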

How the data were processed

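The authors deposited 1 table per tissue with normalised reads per gene, a signal that the submitters' processing notes tie to FastQC, STAR, RSEM, DESeq2 and GRCm39, with no versions. Which gene annotation was used is not stated there. Every value was a whole number of reads divided by a constant of its library (100% whole within 0.01 reads, largest deviation 0.0017), so the deposited signal was taken as counts divided by a size factor per library and tissue, and reads were recovered from it. Levels compared between tissues are recovered reads scaled to 1000000 per library (RPM), or also per kilobase of exons in GENCODE vM21 (RPKM), because the authors normalised each tissue separately. In 125 columns the worth of 1 read could be checked apart from 1, and in the other 3 it lay close to 1. Library totals, 7647585 to 82801330, limit the precision of the genes with few reads. Stranded kits were used per the labels, and no source says whether counting used the strand.

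In each tissue, genes passing filterByExpr (minimum count 10) were fitted with limma 3.58.1 (trend) in R 4.3.3 on log2(value + 1), with 1 mean per age over 16 libraries and Benjamini-Hochberg adjustment over all genes tested, two-sided, at 0.05. Fold changes are on that log2 scale, which understates low genes. The test between tissues used the same scale over the libraries of all tissues. Alternatives were edgeR 4.0.16 (quasi-likelihood, TMM and RLE scaling), DESeq2 1.42.0, limma-voom with quality weights, pseudocounts of 0.1 and 5, no filter, 2 ages alone, a replicate block, leaving out each library, and leaving out the libraries that stood apart. The fits were tested on simulated data. Named genes were the members, the 3 genes of each list with the smallest adjusted p in a tissue, and the 5 genes most like each member. The 3 were taken only from genes changing in the direction with more calls in that list and tissue. Where calls were equal they were taken from the higher genes. The members and lists were chosen with earlier results of these data known. No pair of libraries agreed within sampling noise (lowest chi-square per degree of freedom 2.49). Promoters are from RefSeq, which has entries here for C1qb, C1qc, C1ra and C1s1.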

Additional observations from a re-analysis of the deposited data

Results flagged for a closer look

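The values below were picked because 1 library of a group of 4 lay far from the other 3, or because a change differed between tissues. Among 256 groups of 4 libraries, 17 held such a library, and chance alone marks about 1 in 20 groups.

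Replicate 3 of Aorta at 6 months was highest for all 3 C1q chains, with 942 normalised reads of C1qa, against 561 to 595 in the other 3, 1054 of C1qb, against 476 to 552, and 932 of C1qc, against 513 to 582. Replicate 2 of Kidney at 24 months was lowest for 4 genes, with 455 of C1qb, against 687 to 706, 448 of C1qc, against 606 to 635, 860.3 of C2, against 961 to 978, and 1686 of Serping1, against 2097 to 2171. Replicate 1 of Lung at 6 months was lowest for C4b, at 2621 against 3786 to 4014, and for C1s1, at 2649 against 2935 to 2991.

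C1s1 was lowest in Liver at 30 months in replicate 3, at 7109 against 11354 to 11644, and in Skin at 15 months in replicate 4, at 1188 against 1384 to 1421. C4b was highest in Skin at 30 months in replicate 1, at 3678 against 2435 to 2639. C2 was highest in Aorta at 15 months in replicate 3, at 588 against 302 to 345, and in Liver at 6 months in replicate 4, at 1849.6 against 1752 to 1765. In Muscle, C1qa was highest at 6 months in replicate 1, at 515 against 357 to 377, and C1ra at 24 months in replicate 2, at 719 against 644 to 655. Serping1 was highest in Aorta at 30 months in replicate 2, at 3891 against 3491 to 3557.

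The change at 30 against 6 months differed between the 8 tissues, by the limma interaction test over all libraries, for C1qa (adjusted p = 8.88e-06), C1qb (4.85e-05), C1qc (7.42e-05), C1s1 (0.000114), C1ra (0.000679) and Serping1 (0.00573).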

How the results depend on the processing

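Counts of members called at 30 months were within 1.5 times the reported ones under every alternative run, except that limma-voom with quality weights called 5 in Liver and 2 in Skin, against 3 and 0. At 15 months, where 1 call was reported, DESeq2 made 4, limma-voom 7, the fit of 2 ages alone 16, the fit without the Heart 24-month library that stood apart 4 and that without both Kidney 30-month libraries 5. Without 1 library of the ages compared it was 0 to 1. At 24 months, 25 gene and tissue pairs were reported, DESeq2 made 31, limma-voom 34, the fit of 2 ages alone 27 and no filter 22, and leaving out 1 library gave 22 to 28. Heart, with 4 then, had 2 with 2 ages alone, 6 with DESeq2 and 7 with limma-voom, Liver, with 4, had 6 with limma-voom, and Muscle, with 3, had 5 with 2 ages alone. How many of all genes each of these fits called at 15 and 24 months is not given. Whether their counts are particular to the members, or come with more or fewer calls over all genes, was not tested. The labels do not say whether libraries of the same replicate number come from 1 mouse. The deviations of same-numbered libraries of a tissue had a median correlation of 0.028, with 16 of 96 pairs over 0.1. Between tissues the median was 0.034, with 98 of 448 pairs over 0.1, against -0.011 for libraries of other numbers. These values cannot tell whether tissues of 1 mouse share a number. The main test between tissues took all libraries as separate. With the replicate number as a block, 26 pairs were called at 24 months, 1 at 15 months, and the counts at 30 months were 0 in Aorta and Skin, 5 in Brain, 6 in Heart, 7 in Kidney and 3 in Liver, Lung and Muscle. The cause of these differences was not tested. Of the values of single genes under all alternatives, 2749 kept their status as called or not called, 73 gained a call and 76 lost one, and no called value changed sign. The 2749 include values called in neither fit, so they do not measure how many calls were kept. C4b at 30 months ranged without 1 library from 2.70 to 2.80 in Brain and 2.29 to 2.54 in Kidney, and in Skin from -0.52 to 0.04. Depth limits C2 in Heart and C1s1 and C2 in Brain, which had under 30 reads in some libraries.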
